A study of Homo sapiens with 12 samples.

Results

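The 10 genes described here encode the kinases of the human Hippo cascade and the proteins that bring those kinases together or switch them on: LATS1, LATS2, STK3, STK4, SAV1, MOB1A, NF2, WWC1, FRMD6 and MAP4K4. They were chosen by name, as the rows of both deposited count tables whose Ensembl identifier carries one of these symbols, and they are 10 of the 60649 gene identifiers in each table. All 10 were found once in each table, and all 10 passed the filter on low counts in both comparisons. Their expected counts ranged from 167.73 for SAV1 in its lowest library to 2261 for MOB1A in its highest.

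On GRCh38 (Gencode 44), the kinase genes lie at chr6:149658153-149718105 (LATS1, minus strand), chr13:20973036-21061586 (LATS2, minus), chr8:98371228-98942827 (STK3, minus), chr20:44966494-45080021 (STK4, plus) and chr2:101696850-101894690 (MAP4K4, plus, ENSG00000071054.16). The scaffold and co-activator genes lie at chr14:50632058-50668306 (SAV1, minus, ENSG00000151748.15) and chr2:74152528-74178898 (MOB1A, minus). The cortical genes lie at chr22:29603556-29698598 (NF2, plus), chr5:168291645-168472303 (WWC1, plus) and chr14:51489100-51730727 (FRMD6, plus). All 10 are protein-coding, and levels were summed over all their exons.

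In the Hippo pathway, STK3 and STK4 (the MST kinases), held on the scaffold SAV1, phosphorylate and switch on LATS1 and LATS2, which need MOB1 proteins as co-activators. MAP4K4 and related kinases can phosphorylate LATS in place of the MST kinases, and NF2 (merlin), WWC1 (KIBRA) and FRMD6 work upstream at the cell cortex. Active LATS kinases phosphorylate YAP and TAZ and keep them out of the nucleus, where they would otherwise act with TEAD transcription factors, and in head and neck squamous carcinoma the pathway is often impaired.

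The samples were 12 RNA libraries, 3 in each of 4 groups, all from tumours that Cal33 cells formed as xenografts. Cal33 is an established human line of head and neck squamous carcinoma. smTEADi tumours were treated with SW-682 and Vehicle tumours with vehicle. pTEADi tumours are labelled DOX+ and Control tumours DOX-. What the labels leave unsaid is given here as background on the study: SW-682 is a small-molecule TEAD inhibitor, and pTEADi is a genetically encoded peptide inhibitor of TEAD that doxycycline switches on. On that reading, the inhibitor and the inducer cannot be told apart. The labels give no dose, no treatment time and no host strain or age, nor whether each library stands for its own animal, and a p-value therefore measures only the spread between these libraries. All 4 groups share 1 cell line, which limits them as a model of the disease.

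Each library held between 13576494 and 15433679 expected counts, and between 14536 and 14873 genes had at least 10. The squamous identity of the tumours was checked with 10 markers (KRT5, KRT14, KRT6A, KRT17, TP63, CDH1, EPCAM, DSG3, SFN and PERP), each of which reached at least 100 counts. Sums of markers are given in CPM, counts as parts of a fixed total per library, without TMM scaling. Values of single genes are in CPM after the library totals were scaled by TMM. The sum of the 10 markers was 45320 to 63810 CPM in smTEADi tumours and 62830 to 77690 CPM in Vehicle tumours. It was 66430 to 78310 CPM in pTEADi tumours and 69880 to 82570 CPM in Control tumours. Lists of human marker genes of other cell types each summed to at most 133 CPM in any library. All rows are human genes, so these values, 0 included, do not measure how many host cells a tumour held. COL3A1 and POSTN of fibroblasts, KDR of endothelium, TYROBP of leukocytes and ADIPOQ of adipocytes were at 0 in all 12. Other genes of the same lists were measured, COL1A1 at up to 1764 counts, FABP4 at up to 959, VWF at up to 870, CD68 at up to 503.28, CD74 at up to 390.03 and EGFL7 at up to 329. On the first principal component of the smTEADi and Vehicle libraries (58.4% of the variance), smTEADi library 1 stood at 50, apart from 13.7 and 10.3 for libraries 2 and 3, and Vehicle library 2 at -6.8, apart from -30.7 and -36.5 for libraries 1 and 3. In bulk tumour RNA, fewer cells of a type and less RNA per cell cannot be told apart.

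The promoter of each gene that passed a threshold is shown with that of LATS2, a kinase gene that is itself widely used as a YAP/TAZ target. The stretches come from RefSeq (GRCh38.p14) and are written 5′ to 3′ on the strand of the gene. The first is chr2:101697457-101697706 on the plus strand, the 250 bases before a MAP4K4 start site. It holds no exon of the Gencode 44 annotation and lies within an intron of a longer MAP4K4 transcript, and its capitals mark the letters CCGCCC.

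MAP4K4: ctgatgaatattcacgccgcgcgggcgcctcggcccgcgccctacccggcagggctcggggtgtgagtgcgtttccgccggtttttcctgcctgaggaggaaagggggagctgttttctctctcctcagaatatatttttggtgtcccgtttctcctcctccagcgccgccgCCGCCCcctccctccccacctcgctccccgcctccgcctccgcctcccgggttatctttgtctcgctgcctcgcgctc

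The second is chr14:50668307-50668556 on the minus strand, the 250 bases before the SAV1 start site. Part of it overlaps an exon of an unnamed long non-coding RNA on the opposite strand, and it has no capitals because none of the letters searched were found.

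SAV1: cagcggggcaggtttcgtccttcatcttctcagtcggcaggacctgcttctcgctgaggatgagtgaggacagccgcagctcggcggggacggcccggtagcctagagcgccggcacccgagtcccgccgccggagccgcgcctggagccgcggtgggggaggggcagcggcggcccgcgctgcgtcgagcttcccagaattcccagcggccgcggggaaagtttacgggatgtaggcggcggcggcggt

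The third is chr13:21061560-21061589 on the minus strand, 30 bases around the LATS2 start site that include the start of its first exon. Its capitals mark GGAATG, the core letters of the TEAD recognition element, whose first base lies at position 10 counted from the start site.

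LATS2: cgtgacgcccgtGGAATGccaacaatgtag

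The letters GGAATG or CATTCC, searched on both strands, stood in 4928 of the 35116 promoter windows in the RefSeq table (14%), each window running from 250 bases before to 50 after a start site. Of 13 windows belonging to 9 of the genes, 1 held them, that of LATS2. TGANTCA, the AP-1 element, stood in 7.71% of all windows and in 1 of the 13, at position -245 of LATS1. The GC box letters, GGGCGG or CCGCCC, stood in 45% of all windows and in 9 of the 13, over 7 genes. The MAP4K4 windows held GC box letters and no GGAATG or TGANTCA, and the SAV1 window held none of the 3. These are matches of letters in short windows, and binding was not measured here.

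Of the 10 genes, MAP4K4 alone passed the test in smTEADi against Vehicle tumours, and it fell. In pTEADi against Control tumours MAP4K4 and SAV1 fell. None rose in either comparison. The threshold was an adjusted p of 0.05 from edgeR's quasi-likelihood test over all genes, which 5.50% of the 14829 genes tested passed in smTEADi against Vehicle (2.02% rose and 3.48% fell) and 26.3% of 14705 in pTEADi against Control (12.7% rose and 13.6% fell). The first of these shares rested on single libraries, since 816 genes passed with all 6, none without smTEADi library 3, Vehicle library 1 or Vehicle library 3, and 335, 402 and 1622 without smTEADi library 1, smTEADi library 2 and Vehicle library 2. In pTEADi against Control 3864 genes passed, 2325 without pTEADi library 2 and 2573 without Control library 1. A count of 1 of 10 genes and of 2 of 10 genes is near these shares. The median log2 fold change of the 10 genes was 0.018 in smTEADi against Vehicle, where that of all genes tested was 0.011, and -0.123 in pTEADi against Control, where that of all genes was -0.001.

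**Figure D1:**
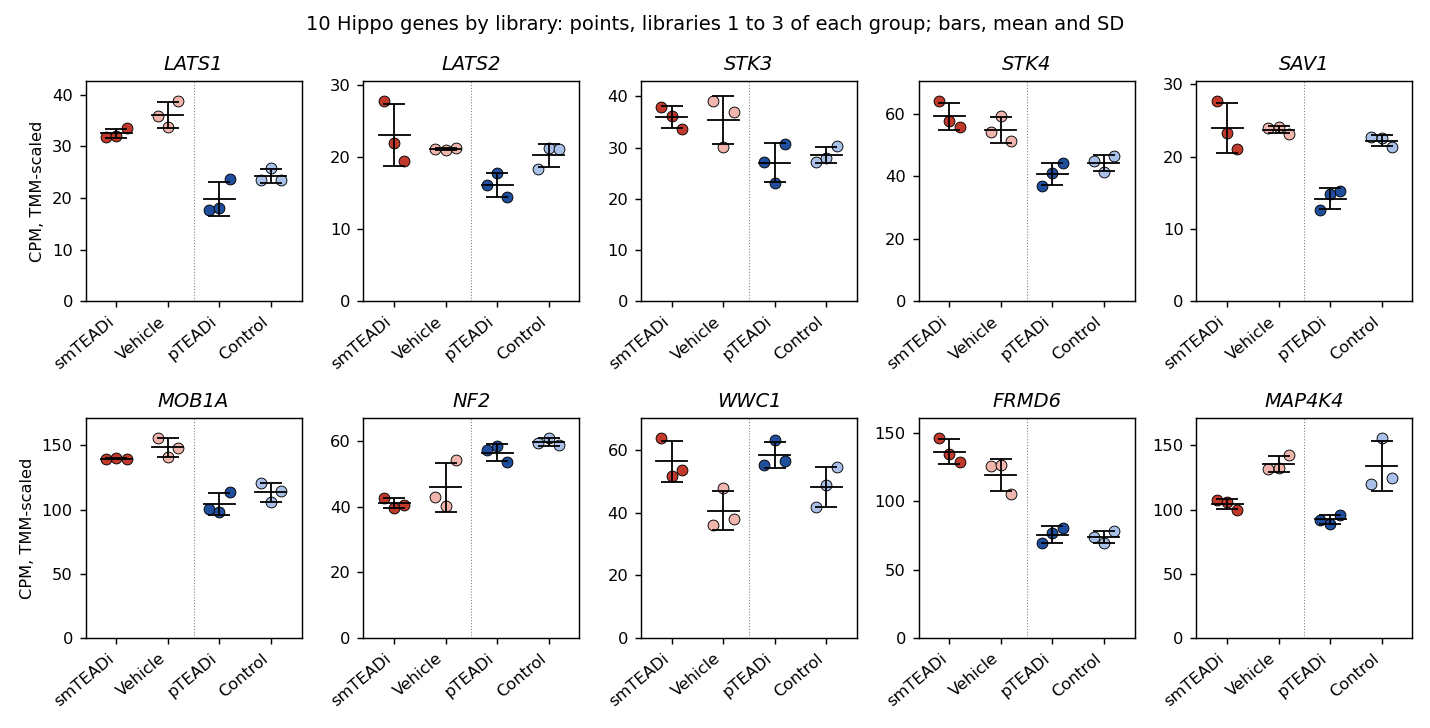
Level of each of the 10 Hippo genes in CPM after TMM scaling (vertical axis from 0) in the 3 libraries of smTEADi, Vehicle, pTEADi and Control tumours, each table scaled by itself for the 2 comparisons on either side of the dotted line, with the mean and SD of each group. MAP4K4 lies lower in all 6 inhibited libraries than in their controls, and SAV1 lies lower in the 3 pTEADi libraries.

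The MST kinases are the top of the kinase cascade. STK3 was at 37.96, 36.2 and 33.7 CPM in smTEADi tumours, against 39.1, 30.1 and 37.1 CPM in Vehicle tumours. It was at 27.2, 23.2 and 30.7 CPM in pTEADi tumours, against 27.3, 28.0 and 30.4 CPM in Control tumours. The groups overlapped in both comparisons. The log2 fold change of STK3 was 0.02 ± 0.12 (SE, 95% interval -0.25 to 0.30; edgeR adjusted p = 0.924) in smTEADi tumours and -0.08 ± 0.12 (-0.34 to 0.18; edgeR adjusted p = 0.674) in pTEADi tumours. STK4, its paralog, was at 64.1, 57.7 and 56.0 CPM in smTEADi tumours, against 54.1, 59.4 and 51.3 CPM in Vehicle tumours. In pTEADi tumours STK4 was at 37.0, 41.1 and 44.2 CPM, against 45.0, 41.6 and 46.6 CPM in Control tumours. Here too the libraries overlapped, with log2 fold changes of 0.11 ± 0.10 (edgeR adjusted p = 0.520) in smTEADi tumours and -0.12 ± 0.10 (edgeR adjusted p = 0.395) in pTEADi tumours. The intervals for STK4 ran from -0.12 to 0.34 and from -0.34 to 0.09, so they exclude a change of the size seen for SAV1 in pTEADi tumours.

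SAV1 (salvador) is the WW-domain scaffold that binds the MST kinases and brings them to LATS. It had the largest fold change of the 10 genes in pTEADi tumours. SAV1 was at 12.6, 14.8 and 15.2 CPM in pTEADi tumours, against 22.7, 22.6 and 21.3 CPM in Control tumours. Every pTEADi library lay below every Control library, and the mean was 14.2 ± 1.40 CPM in pTEADi tumours and 22.2 ± 0.740 CPM in Control tumours (SD, n = 3 each). The log2 fold change was -0.64 ± 0.12 (SE, 95% interval -0.90 to -0.38; edgeR adjusted p = 0.00235), and SAV1 passed under all 16 other settings in which it was recomputed. In smTEADi tumours SAV1 was at 27.7, 23.2 and 21.0 CPM, against 23.9, 24.1 and 23.1 CPM in Vehicle tumours. These groups overlapped, with smTEADi library 1 the highest of the 6 and smTEADi library 3 the lowest, and the log2 fold change was 0.01 ± 0.13 (95% interval -0.28 to 0.31; edgeR adjusted p = 0.952).

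The SAV1 count has a limit that the other 9 genes share less or not at all. SAV1 and ATL1, which encodes the membrane-shaping GTPase atlastin, share 1789 exonic bases on opposite strands, and the SAV1 value was not a whole number in 12 of 12 libraries, as happens where reads are divided between genes. ATL1 had a log2 fold change of 0.48 ± 0.19 in pTEADi tumours (edgeR adjusted p = 0.0802), opposite in sign to SAV1, and 0.44 ± 0.26 in smTEADi tumours (edgeR adjusted p = 0.295). SAV1 and ATL1 together came to 19.3, 20.7 and 21.8 CPM in pTEADi tumours, against 26.7, 27.5 and 26.2 CPM in Control tumours, so the sum was also lower in every pTEADi library. LATS1 had values that were not whole in 6 of 12 libraries and shares 257 bases with an unnamed antisense RNA of at most 31 counts, and STK3 shares 106 bases with one of at most 1 count.

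LATS1 and LATS2 are the kinases that act on YAP and TAZ directly. LATS1 was at 31.9, 32.1 and 33.6 CPM in smTEADi tumours, against 35.9, 33.7 and 38.8 CPM in Vehicle tumours. The 3 smTEADi libraries lay below the 3 Vehicle libraries by a narrow margin, and the log2 fold change of -0.15 ± 0.10 did not pass (95% interval -0.38 to 0.08; edgeR adjusted p = 0.356). In pTEADi tumours LATS1 was at 17.6, 18.2 and 23.6 CPM, against 23.5, 25.8 and 23.5 CPM in Control tumours. Its pTEADi library 3 reached the Control range while libraries 1 and 2 lay below it, and the log2 fold change was -0.29 ± 0.13 (edgeR adjusted p = 0.126). Without pTEADi library 3 it was -0.43 and passed (edgeR adjusted p = 0.0330).

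LATS2 differed from LATS1 in smTEADi tumours in the sign of its fold change. LATS2 was at 27.7, 21.9 and 19.4 CPM in smTEADi tumours, against 21.1, 21.0 and 21.2 CPM in Vehicle tumours. The Vehicle libraries agreed closely, while smTEADi library 1 lay above them and library 3 below, with a log2 fold change of 0.12 ± 0.15 (edgeR adjusted p = 0.615) that turned to -0.03 without smTEADi library 1. LATS2 was at 16.1, 17.7 and 14.5 CPM in pTEADi tumours, against 18.4, 21.3 and 21.1 CPM in Control tumours. All pTEADi libraries lay below all Control libraries, but the log2 fold change of -0.33 ± 0.13 (95% interval -0.60 to -0.06) did not pass (edgeR adjusted p = 0.0734).

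MOB1A binds LATS kinases once it is phosphorylated and raises their activity. MOB1A was at 139, 140.4 and 139.6 CPM in smTEADi tumours, against 156, 141 and 148 CPM in Vehicle tumours. In pTEADi tumours MOB1A was at 100.4, 98.5 and 114 CPM, against 120.4, 106 and 115 CPM in Control tumours. The smTEADi libraries lay just below the Vehicle libraries and the pTEADi libraries overlapped with the Control libraries. The log2 fold changes were -0.09 ± 0.09 (95% interval -0.29 to 0.11; edgeR adjusted p = 0.552) in smTEADi tumours and -0.12 ± 0.09 (-0.32 to 0.08; edgeR adjusted p = 0.354) in pTEADi tumours.

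MAP4K4 is a kinase of the MAP4K family that can phosphorylate LATS1 and LATS2 and also acts in JNK signalling and cell migration. MAP4K4 was at 108, 106 and 99.96 CPM in smTEADi tumours, against 131.5, 133 and 143 CPM in Vehicle tumours. In pTEADi tumours it was at 92.2, 88.7 and 96.3 CPM, against 120.4, 156 and 125 CPM in Control tumours. All 6 inhibited libraries lay below all of their controls. The mean was 105 ± 4.11 CPM in smTEADi and 136 ± 6.22 CPM in Vehicle tumours, and 92.4 ± 3.76 CPM in pTEADi and 134 ± 19.4 CPM in Control tumours (SD, n = 3 each). MAP4K4 fell in both comparisons, with log2 fold changes of -0.38 ± 0.09 in smTEADi tumours (95% interval -0.58 to -0.17; edgeR adjusted p = 0.0475) and -0.53 ± 0.10 in pTEADi tumours (-0.76 to -0.31; edgeR adjusted p = 0.00318).

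The MAP4K4 call in smTEADi tumours lay close to the threshold. Its log2 fold change stayed between -0.41 and -0.34 under all 17 other settings, but the adjusted p of edgeR was above 0.05 when any 1 of the 6 libraries was left out, at 0.0653, 0.0865 and 0.0868 without smTEADi libraries 1, 2 and 3 and at 0.146, 0.0503 and 0.216 without Vehicle libraries 1, 2 and 3. Without smTEADi library 1 and Vehicle library 2, the libraries that stood apart, MAP4K4 was at -0.41 and passed (edgeR adjusted p = 0.0203). That removal was chosen after the values were seen. It raised the count of all genes passing from 816 to 2073, so the pass is no separate support for MAP4K4. In pTEADi tumours MAP4K4 passed under all 16 other settings, with log2 fold changes between -0.61 and -0.41. The smaller of these was without Control library 2, which at 156 CPM was the highest of the 3.

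The cortical members WWC1, NF2 and FRMD6 did not pass. WWC1, which binds LATS kinases and NF2, was at 63.8, 51.7 and 53.5 CPM in smTEADi tumours, against 36.1, 47.7 and 38.02 CPM in Vehicle tumours. WWC1 was at 55.3, 63.2 and 56.5 CPM in pTEADi tumours, against 41.7, 48.7 and 54.4 CPM in Control tumours. It was the only gene of the 10 that was higher in every inhibited library than in every control library in both comparisons. Its log2 fold changes were 0.47 ± 0.13 (95% interval 0.17 to 0.77; edgeR adjusted p = 0.0639) in smTEADi tumours and 0.27 ± 0.11 (0.03 to 0.51; edgeR adjusted p = 0.0873) in pTEADi tumours. In smTEADi tumours WWC1 passed under 5 of the 17 other settings, DESeq2 among them (adjusted p = 0.0272). Without Vehicle library 2 its log2 fold change was 0.61 (edgeR adjusted p = 0.0259). Without that library and smTEADi library 1, a removal chosen after the values were seen, the fold change was 0.51 (edgeR adjusted p = 0.00874). In pTEADi tumours WWC1 passed without Control library 3, at 0.37 (edgeR adjusted p = 0.0218).

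NF2 encodes merlin, the tumour suppressor that links the cell cortex to LATS activation. NF2 was at 42.6, 39.7 and 40.6 CPM in smTEADi tumours, against 43.0, 40.3 and 54.2 CPM in Vehicle tumours. In pTEADi tumours NF2 was at 57.2, 58.4 and 53.6 CPM, against 59.3, 60.9 and 58.8 CPM in Control tumours. The smTEADi and Vehicle groups overlapped, with Vehicle library 3 apart from the other 5, and the pTEADi libraries lay just below the Control libraries. Log2 fold changes were -0.16 ± 0.12 (95% interval -0.44 to 0.12; edgeR adjusted p = 0.420) in smTEADi tumours and -0.08 ± 0.08 (-0.26 to 0.10; edgeR adjusted p = 0.515) in pTEADi tumours.

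FRMD6 is a FERM-domain protein, the relative of Drosophila Expanded. FRMD6 was at 146, 134 and 128 CPM in smTEADi tumours, against 126, 126 and 106 CPM in Vehicle tumours. It was at 69.2, 77.2 and 80.8 CPM in pTEADi tumours, against 73.6, 69.7 and 78.6 CPM in Control tumours. The smTEADi libraries lay above the Vehicle libraries and the pTEADi libraries overlapped with the Control libraries. Log2 fold changes were 0.19 ± 0.11 (95% interval -0.05 to 0.44; edgeR adjusted p = 0.274) in smTEADi tumours and 0.03 ± 0.09 (-0.16 to 0.23; edgeR adjusted p = 0.820) in pTEADi tumours.

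Counted over the family, 5 of the 10 genes had no overlap between smTEADi and Vehicle libraries, WWC1 and FRMD6 higher and MAP4K4, LATS1 and MOB1A lower, where 33.0% of all genes tested had none. In pTEADi against Control tumours 5 of the 10 had none, WWC1 higher and MAP4K4, SAV1, LATS2 and NF2 lower, where 42.0% of all genes had none. The counts are close to these shares. Over the 10 genes the coefficient of variation within a group had a median of 6.34% in smTEADi, 7.28% in Vehicle, 8.45% in pTEADi and 5.9% in Control tumours, and it reached 18.6% for LATS2 in smTEADi tumours.

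**Figure D2:**
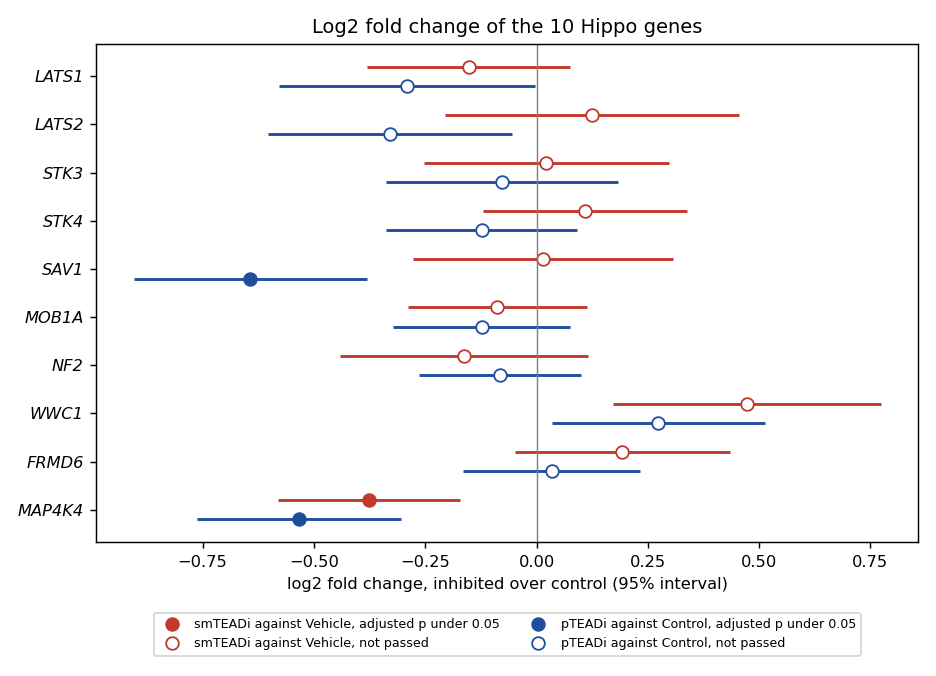
Log2 fold change (horizontal axis) of each of the 10 genes in smTEADi against Vehicle (red) and pTEADi against Control (blue) tumours, with 95% intervals and filled points where the edgeR adjusted p was under 0.05. Only MAP4K4 is filled in both, at -0.38 and -0.53, and SAV1 is filled in pTEADi tumours alone.

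Whether an effect differed between the inhibitors was tested as the pTEADi effect minus the smTEADi effect in 1 edgeR fit of the 12 libraries. None of the 10 genes passed with edgeR or with DESeq2, and 2 of 15460 genes passed with edgeR (0.0129%). An unadjusted p under 0.05 was found for 2 of the 10 genes and for 1103 of all genes. SAV1 had the largest difference of the 10, -0.65 ± 0.17 on the log2 scale (95% interval -1.02 to -0.29; unadjusted p = 0.00163, edgeR adjusted p = 0.409), and was 61st of all genes by p. LATS2 followed with -0.45 ± 0.19 (95% interval -0.86 to -0.04; unadjusted p = 0.0327, edgeR adjusted p = 0.673). The difference was -0.16 ± 0.14 for MAP4K4 (95% interval -0.45 to 0.14) and -0.20 ± 0.18 for WWC1 (-0.58 to 0.19). The passing of SAV1 in pTEADi tumours and not in smTEADi tumours is therefore not shown, after adjustment, to be a difference between the inhibitors.

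Levels were set against each other per kilobase of exon, with all 12 libraries scaled together, since longer genes collect more reads. MOB1A was the most abundant of the 10 in each group, at 21.6 CPM per kb in smTEADi, 22.9 in Vehicle, 16.3 in pTEADi and 17.7 in Control tumours. FRMD6 came second in smTEADi tumours at 14.4 CPM per kb and in Vehicle tumours at 12.6. MAP4K4 was at 8.70 CPM per kb in smTEADi and 11.3 in Vehicle tumours, and at 7.77 in pTEADi and 11.2 in Control tumours, where it was second to MOB1A. Its order relative to FRMD6 was thus not the same in each group, and in Vehicle and pTEADi tumours the libraries of these 2 genes overlapped.

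The 4 core kinases ranked between 5th (LATS1 in Vehicle tumours) and 10th by exon length. STK3 was the lowest by exon length in every group, at 2.84 CPM per kb in smTEADi, 2.79 in Vehicle, 2.16 in pTEADi and 2.28 in Control tumours. LATS2 was at 4.08 CPM per kb in smTEADi, 3.74 in Vehicle, 2.88 in pTEADi and 3.62 in Control tumours, and LATS1 at 3.81, 4.23, 2.34 and 2.87 in the same order of groups. STK4 was at 3.56 CPM per kb in smTEADi, 3.30 in Vehicle, 2.47 in pTEADi and 2.69 in Control tumours. Neighbours in the order overlapped in their libraries for 4 of 9 neighbouring pairs in smTEADi, 5 in Vehicle, 6 in pTEADi and 3 in Control tumours. The order among these low genes depended on the length used. With the longest transcript in place of all exons, STK4 was 6th and LATS2 10th in smTEADi tumours. STK3 was then 8th in smTEADi, 7th in Vehicle, 6th in pTEADi and 8th in Control tumours, and so the lowest in no group. Of the 45 pairs of members 38 kept their order in smTEADi, 36 in Vehicle, 38 in pTEADi and 39 in Control tumours.

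NF2, WWC1 and SAV1 took different places in the 4 groups. NF2 was at 5.52 CPM per kb in smTEADi, 6.17 in Vehicle, 7.67 in pTEADi and 8.10 in Control tumours. WWC1 was at 5.56, 4.01, 5.82 and 4.80 CPM per kb in these 4 groups, and SAV1 at 4.25, 4.21, 2.55 and 3.97. SAV1 was 6th of the 10 in Control tumours and 7th in pTEADi tumours, where its libraries overlapped with those of LATS2 and STK4. No test was made between groups of different tables.

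**Figure D3:**
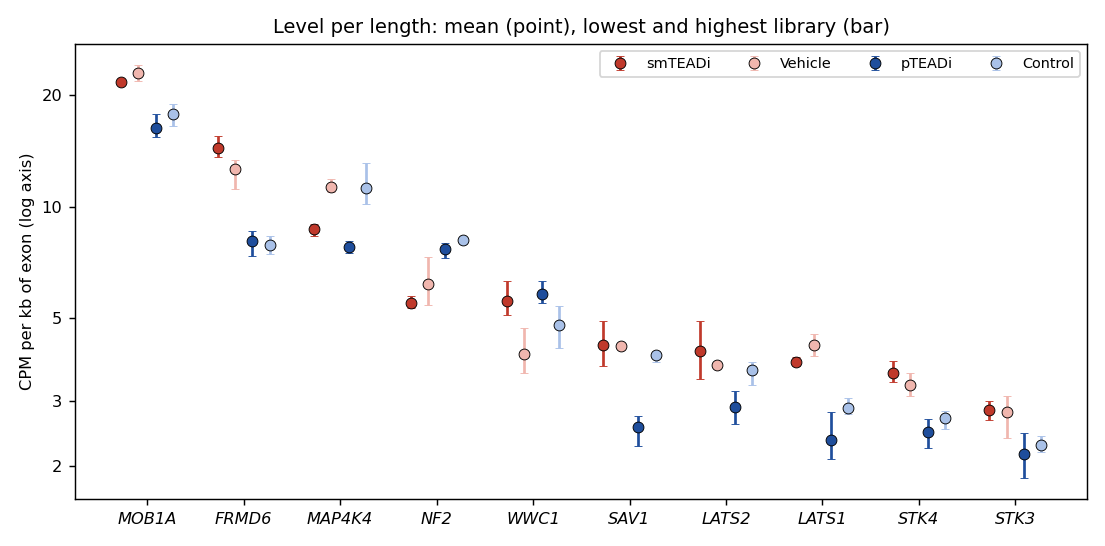
Mean level in CPM per kilobase of exon (log axis) of the 10 genes in smTEADi, Vehicle, pTEADi and Control tumours, with bars from the lowest to the highest library. By this length MOB1A is highest and STK3 lowest in all 4 groups, and SAV1 in pTEADi tumours, at 2.55, lies under its other groups. With the longest transcript as the length, STK3 is lowest in no group.

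The balance between paralogs of the cascade was read within each library. It was the difference of log2(CPM + 0.5) between 2 genes of 1 library, tested by a two-sided exact permutation test, which cannot give a p below 0.1 with 3 libraries against 3, with Benjamini-Hochberg adjustment over 6 tests. LATS2 over LATS1 was -0.20, -0.54 and -0.77 in smTEADi tumours, against -0.75, -0.67 and -0.86 in Vehicle tumours, so that smTEADi libraries 1 and 2 were above the Vehicle range (difference of means 0.25, exact p = 0.3, adjusted 0.6). It was -0.13, -0.03 and -0.69 in pTEADi tumours, against -0.35, -0.27 and -0.16 in Control tumours (difference -0.03, exact p = 1, adjusted 1). The difference changed sign with the library left out, between -0.15 and 0.18.

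STK3 over STK4 averaged -0.71 ± 0.04 in smTEADi and -0.63 ± 0.29 in Vehicle tumours (SD, n = 3 each; exact p = 0.8, adjusted 0.96), and -0.59 ± 0.20 in pTEADi and -0.63 ± 0.08 in Control tumours (exact p = 0.8, adjusted 0.96). MOB1A was compared with MOB1B, the second MOB1 co-activator. MOB1A over MOB1B was 3.01, 2.93 and 2.89 in smTEADi tumours, against 2.695, 2.81 and 2.87 in Vehicle tumours, with no overlap (difference 0.15, exact p = 0.1, adjusted 0.6). It was 3.16, 2.95 and 2.96 in pTEADi tumours, against 3.30, 3.48 and 3.15 in Control tumours (difference -0.29, exact p = 0.2, adjusted 0.6). The differences had opposite signs in the 2 comparisons. With a smallest possible exact p of 0.1, the test could pass neither and cannot decide whether a balance changed.

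**Figure D4:**
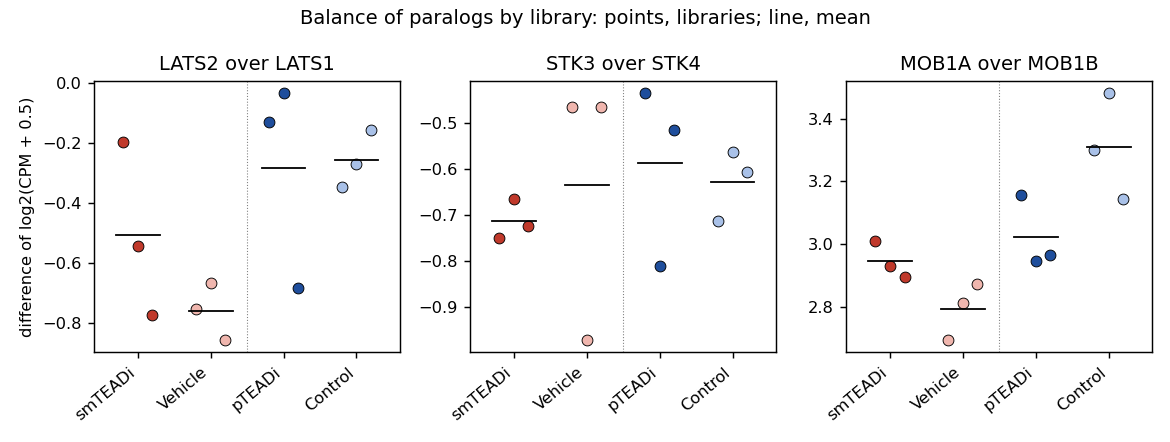
Difference of log2(CPM + 0.5) between paralogs (vertical axis, not from 0) in each library of smTEADi, Vehicle, pTEADi and Control tumours, with the group mean as a line. MOB1A over MOB1B does not overlap between smTEADi and Vehicle tumours, and the other pairs do in both comparisons.

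The rest of the pathway was read from 4 lists of 73 further genes. In smTEADi against Vehicle tumours 67 were tested, 2 rose and 2 fell, and their median log2 fold change was 0.067. In pTEADi against Control tumours 67 were tested, 7 rose and 9 fell, with a median of -0.029. The count of 4 in smTEADi tumours was 0 without smTEADi library 1, smTEADi library 3, Vehicle library 1 or Vehicle library 3, 2 without smTEADi library 2 and 6 without Vehicle library 2. The count of 16 in pTEADi tumours was 7 without pTEADi library 2 and 7 without Control library 1. Over the 4 lists together, the shares that passed are near or below those of all genes, and single lists differed in how many rose and fell.

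Among 19 other kinases and MOB1B, none passed in smTEADi tumours, where 6 of 18 tested had an unadjusted p under 0.05 beside 4128 of all 14829 genes. In pTEADi tumours 4 of 19 tested passed, beside 26.3% of all genes. TNIK, a kinase close to MAP4K4 in sequence, had a log2 fold change of 0.54 ± 0.15 in pTEADi tumours (edgeR adjusted p = 0.0191), opposite in sign to MAP4K4, and of 0.61 ± 0.24 in smTEADi tumours, which did not pass (adjusted p = 0.136). STK38, an NDR kinase related to LATS, rose by 0.31 ± 0.09 in pTEADi tumours (edgeR adjusted p = 0.0218). The MST-family kinases STK25 and STK24 went opposite ways there, 0.28 ± 0.09 (edgeR adjusted p = 0.0311) and -0.31 ± 0.08 (0.0152). MOB1B had a log2 fold change of -0.25 ± 0.13 in smTEADi tumours (edgeR adjusted p = 0.238) and 0.17 ± 0.17 in pTEADi tumours (0.507).

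Among 29 other adaptors, scaffolds and junction proteins, 26 were tested in smTEADi tumours, where 2 rose and 1 fell. In pTEADi tumours 25 were tested, and 4 rose and 4 fell. Of all genes tested, 2.02% rose and 3.48% fell in smTEADi tumours, and 12.7% rose and 13.6% fell in pTEADi tumours. Counts this small were not tested against these shares. RASSF5, which binds MST kinases through a SARAH domain as SAV1 does, was at 78.7, 48.1 and 48.1 CPM in smTEADi tumours, against 25.5, 37.1 and 24.4 CPM in Vehicle tumours. It was at 34.6, 45.3 and 36.4 CPM in pTEADi tumours, against 14.3, 20.1 and 19.2 CPM in Control tumours. RASSF5 rose in both, by 1.01 ± 0.22 (edgeR adjusted p = 0.0415) and 1.12 ± 0.15 (edgeR adjusted p = 0.000297) on the log2 scale. The polarity gene PARD3 rose in both as well, by 0.48 ± 0.12 in smTEADi tumours (edgeR adjusted p = 0.0472) and 0.39 ± 0.10 in pTEADi tumours (0.0120).

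The atypical cadherin FAT4 fell in both comparisons, by 1.10 ± 0.27 in smTEADi tumours (edgeR adjusted p = 0.0481) and 1.11 ± 0.37 in pTEADi tumours (0.0441) on the log2 scale, at mean levels of no more than 5.66 CPM in any group. In pTEADi tumours the polarity genes LLGL2 (0.67 ± 0.10, edgeR adjusted p = 0.000533) and SCRIB (0.40 ± 0.11, 0.0148) rose. The cadherin FAT1 (-0.54 ± 0.11, edgeR adjusted p = 0.00346), the angiomotin AMOTL2 (-0.50 ± 0.10, 0.00369) and RASSF1 (-0.31 ± 0.10, 0.0455), another SARAH-domain partner of the MST kinases, fell. Of 16 genes of STRIPAK, the phosphatase complex that dephosphorylates MST kinases, none passed in smTEADi tumours, where 2 of 15 tested had an unadjusted p under 0.05 beside the same 4128 of 14829 genes. In pTEADi tumours STRIP2 alone of 15 tested passed, beside 26.3% of all genes, and it fell by 1.20 ± 0.24 (edgeR adjusted p = 0.00333).

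Downstream of the kinases, 8 nuclear factors were tested. In smTEADi tumours 1 fell and none rose, with 4 positive and 4 negative log2 fold changes and a median of -0.018. In pTEADi tumours 3 fell and none rose, with 3 positive and 5 negative and a median of -0.216. TEAD4 fell in both comparisons, by 1.09 ± 0.25 in smTEADi tumours (edgeR adjusted p = 0.0446) and 0.71 ± 0.16 in pTEADi tumours (0.00811). WWTR1, which encodes TAZ, and TEAD2 fell in pTEADi tumours, by 0.57 ± 0.10 (edgeR adjusted p = 0.00153) and 0.36 ± 0.11 (0.0254). TEAD3 went the other way and was higher without overlap in both comparisons, though it did not pass. Its mean was 73.3 CPM in smTEADi and 54.6 in Vehicle tumours, and 65.3 in pTEADi and 55.0 in Control tumours. YAP1 was higher without overlap in smTEADi tumours only, at means of 212 CPM against 174 CPM in Vehicle tumours, and did not pass. A list of 22 YAP/TAZ target genes includes LATS2 and shares some genes with the lists of other pathway genes, so the counts of these lists are not separate. Of the targets, 6 fell and none rose among 20 tested in smTEADi tumours, with a median of -0.27. In pTEADi tumours 13 fell and none rose among 21 tested, with a median of -0.54. Of all genes tested, 3.48% fell in smTEADi tumours and 13.6% in pTEADi tumours. No gene of any kind passed in smTEADi tumours without smTEADi library 3, Vehicle library 1 or Vehicle library 3. CCN1, a secreted matrix protein, fell by 1.52 ± 0.20 in smTEADi tumours (edgeR adjusted p = 0.0365) and 1.42 ± 0.21 in pTEADi tumours (0.000624), while LATS2, at 0.12 and -0.33, passed in neither.

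**Figure D5:**
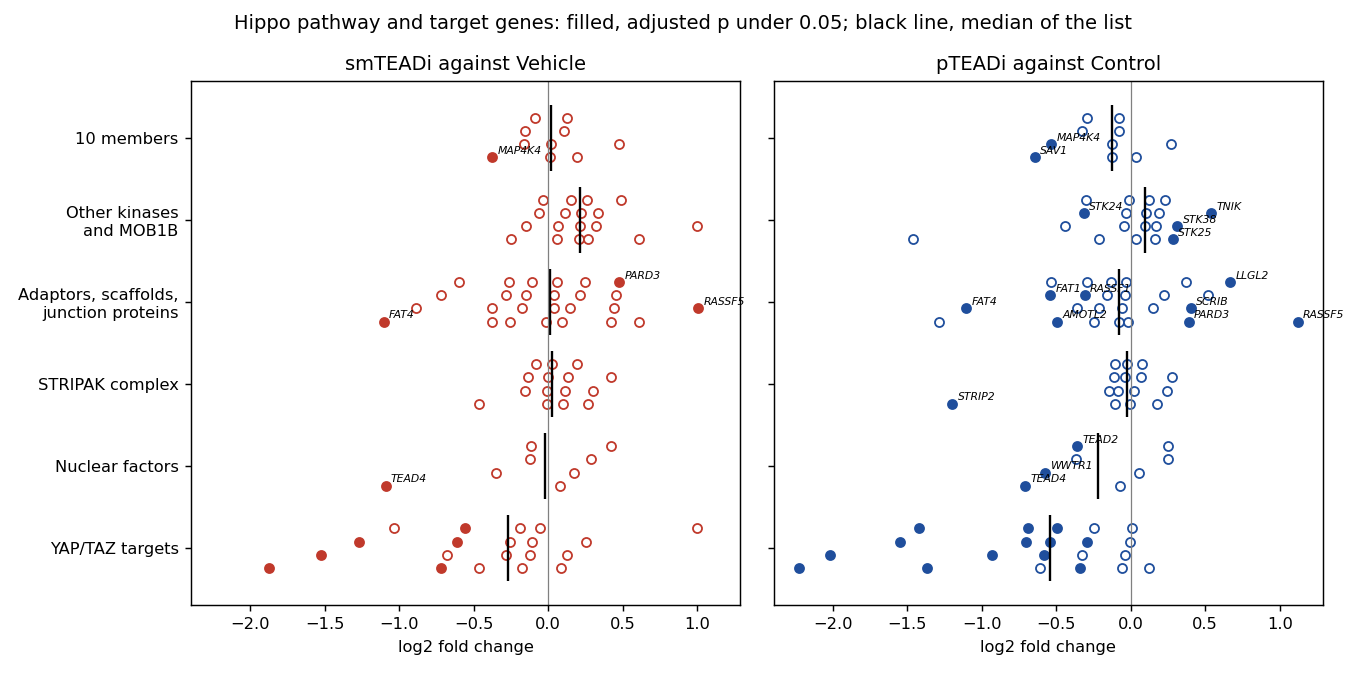
Log2 fold change (horizontal axis) of the 10 genes, of 4 lists of other Hippo pathway genes and of YAP/TAZ targets in smTEADi against Vehicle (left) and pTEADi against Control (right) tumours, with filled points for an edgeR adjusted p under 0.05 and a black line at each list's median. The medians of the 10 genes, 0.018 and -0.123, lie nearer 0 than those of the targets, -0.27 and -0.54.

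The marker lists of other cell types hold human genes and so do not measure host cells. Their sums are in CPM without TMM scaling, while the values of single genes given beside them are TMM-scaled. The endothelial sum separated the groups in both comparisons and the fibroblast sum in neither. The leukocyte sum separated the groups in pTEADi tumours and the adipocyte sum in smTEADi tumours. Single genes of a list did not all follow its sum. The 7 endothelial markers summed to 45.6 to 69.2 CPM in smTEADi and 27.3 to 44.9 CPM in Vehicle tumours, and to 47.9 to 60.4 CPM in pTEADi and 32.4 to 37.8 CPM in Control tumours, with 5 of the 7 under 10 counts in every library. VWF was higher in both, at a mean of 47.8 CPM in smTEADi and 21.7 CPM in Vehicle tumours (log2 fold change 1.14 ± 0.30, edgeR adjusted p = 0.0561). It was at 35.6 CPM in pTEADi and 15.6 CPM in Control tumours (1.19 ± 0.19, edgeR adjusted p = 0.000862). CLDN5 was also higher without overlap in pTEADi tumours, at no more than 9 counts. TEK, of the same list, was lower without overlap in smTEADi tumours, at no more than 3 counts. EGFL7 was at 9.31 and 10.8 CPM in smTEADi and Vehicle and 18.7 and 18.9 CPM in pTEADi and Control tumours, with overlap in both. The 9 leukocyte markers summed to 36.0 to 54.0 CPM in smTEADi and 37.8 to 46.8 CPM in Vehicle tumours, and to 35.0 to 40.9 CPM in pTEADi and 48.6 to 74.3 CPM in Control tumours. Of these markers, CSF1R was lower without overlap in both comparisons, at means of 1.99 CPM in smTEADi and 3.80 in Vehicle tumours. Its means were 1.46 CPM in pTEADi and 3.81 in Control tumours. CD74 was lower without overlap in pTEADi tumours alone, and the other leukocyte markers overlapped in both. Fibroblast markers summed to 85.7 to 89.9 CPM in smTEADi and 80.0 to 95.1 CPM in Vehicle tumours, and to 98.5 to 133 CPM in pTEADi and 103 to 121 CPM in Control tumours, most of it COL1A1. FAP was lower without overlap in both comparisons, at means of 1.73 CPM in smTEADi and 4.04 in Vehicle tumours. Its means were 2.91 CPM in pTEADi and 5.52 in Control tumours. LUM was lower and COL1A2 higher without overlap in smTEADi tumours alone, at no more than 31 and 7 counts there. The 7 adipocyte markers, 4 of them at 0 and FABP4 the most abundant, summed to 34.2 to 65.6 CPM in smTEADi and 23.7 to 33.1 CPM in Vehicle tumours, and to 16.7 to 20.3 CPM in pTEADi and 14.99 to 23.2 CPM in Control tumours. PLIN4 was higher without overlap in pTEADi tumours, at no more than 84 counts. The 6 skeletal muscle markers with a named row summed to at most 4.23 CPM in any library. The part of these markers in the values of MAP4K4 and SAV1 was not tested.

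The genes whose log2 CPM followed MAP4K4 most closely over the 12 libraries, of 10628 protein-coding genes compared, were HERC5 (Pearson r = 0.965), FGF2 (0.957) and INHBA (0.955). For SAV1 they were AK4 (0.969), EDEM1 (0.959) and GALNT3 (0.955). These are the highest of many correlations over libraries that share 4 groups, so they describe a common pattern of levels across the groups and were not tested.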

How the data were processed

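Poly-T-selected RNA from Cal33 xenograft tumours was sequenced as 12 libraries. The authors deposited 1 table of expected counts for each comparison, not normalized, made with STAR 2.7.9a and RSEM 1.3.1 on hg38 per the submitters' processing notes; the strand setting and the handling of host reads are not given in the sources used here. Identifiers follow Gencode 38 in the deposited tables, and names, lengths and coordinates were taken from Gencode 44 (GRCh38), which named 60463 of 60649 identifiers. RSEM divides reads that match several genes, so overlapping genes and near copies are uncertain.

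Expected counts were rounded to whole numbers and tested with edgeR 4.0.16 (R 4.3.3): filterByExpr with a minimum of 10 counts, TMM scaling, quasi-likelihood F test, Benjamini-Hochberg adjustment over all genes tested, 3 libraries against 3 without covariates. The SE is the log2 fold change over the square root of F. The difference of effects was a contrast in 1 fit of 12 libraries. limma 3.58.1 and DESeq2 1.42.0 gave alternatives, and Python 3.11.15 with scipy 1.17.1 the permutation tests. The fit was also run on simulated counts with the same dispersion for every gene. That run held no outlying library, so it does not test the smTEADi and Vehicle libraries that stood apart. Precision rests on 13576494 to 15433679 counts per library.

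The 10 genes, the gene lists, the alternatives and the tests were chosen with earlier results of these data known. Named genes were all 10 members, then pathway and target genes past the threshold (up to 8 per list and comparison), and the 3 protein-coding genes of at least 5 CPM most correlated with each member that passed. ATL1, its sum with SAV1, CCN1 as the single target example, and the joint removal of 2 libraries were chosen after the values were seen. STK3 is named without a sequence.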

Additional observations from a re-analysis of the deposited data

How the results depend on the processing

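Of 540 recomputed log2 fold changes of the 10 genes, 509 kept their sign and side of the threshold, 7 lost their call, 7 gained one and 17 changed sign. All 17 were in comparisons where the gene in question did not pass. In smTEADi against Vehicle tumours 816 genes passed, with 1 of the 10 genes and 4 other pathway genes. Without a filter on low counts these were 2101, 2 and 11, with DESeq2 1868, 2 and 8, with 1 fit of all 12 libraries 2303, 2 and 12, and without smTEADi library 1 and Vehicle library 2 together 2073, 2 and 8; the second gene was WWC1 each time. At an adjusted p of 0.01 all 3 counts were 0. Leaving out 1 library gave 0 to 1622 genes, 0 to 1 of the 10 and 0 to 6 others. In pTEADi against Control tumours 3864 genes, 2 of the 10 and 16 others passed; at 0.01 there were 2138 genes and 7 others, and leaving out 1 library gave 2325 to 4379 genes, 2 to 3 of the 10 and 7 to 19 others. For the difference of the effects 2 genes passed and none of the 10; there were 377 genes and 1 other pathway gene without the filter, 37 genes with DESeq2, 0 at 0.01, and 0 to 20, with 0 of the 10 and 0 others, leaving out 1 library. The causes of these shifts were not tested.

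Same-numbered libraries did not deviate together (r between -0.172 and 0.156), so the numbers were not taken as pairs. With the replicate block 0 genes, 0 of the 10 and 0 others passed in smTEADi tumours, 3707, 2 and 14 in pTEADi tumours, and 0 genes for the difference.

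With 1 library left out, the sign changed for LATS2 (-0.030 to 0.223), STK3 (-0.083 to 0.098) and SAV1 (-0.100 to 0.092) in smTEADi tumours, for STK3 (-0.173 to 0.033) and FRMD6 (-0.008 to 0.101) in pTEADi tumours, and for STK3 (-0.197 to 0.010), MOB1A (-0.099 to 0.015) and NF2 (-0.053 to 0.169) in the difference of the effects. Without smTEADi library 1 and Vehicle library 2 together, LATS2 was at -0.032, STK3 at -0.121 and SAV1 at -0.088 in smTEADi tumours. Paralog differences with 1 library left out ran, in smTEADi tumours, from 0.101 to 0.389 for LATS2 over LATS1, -0.248 to 0.006 for STK3 over STK4 and 0.101 to 0.191 for MOB1A over MOB1B, and in pTEADi tumours from -0.15 to 0.175, -0.036 to 0.152 and -0.368 to -0.20. SAV1 had 167.73 to 372.59 counts and LATS2 210 to 374. The lowest value of the 10 genes was that of SAV1 in pTEADi tumours, where it fell. LATS2 was the lower of the pair in Vehicle tumours (297 to 307 counts, SAV1 334.7 to 347.19) and Control tumours (265 to 301, SAV1 304.99 to 326.89).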
